A study of Mus musculus with 25 samples.

Results

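The genes described are 9 effector cytokines and death ligands of CD8+ T cells: Ifng, Tnf, Fasl, Tnfsf10, Il2, Lta, Ltb, Csf1 and Csf2. They were chosen by symbol, and all 9 were found among the 23366 gene symbols of the deposited expression table. The table holds 25 bulk RNA sequencing libraries of CD8+ T cells recovered from B16F10 tumours, a transplanted mouse melanoma, in C57BL/6 mice. All mice carried the tumour, and 4 genotypes were compared. There were 16 wild-type (WT) libraries, 3 with a conditional knockout (cKO) of Prdm1, 3 with a c-Maf cKO (the gene is listed as Maf), and 3 with the Prdm1/c-Maf conditional double knockout (cDKO). Prdm1 encodes Blimp-1, a repressor of transcription in effector and dysfunctional T cells, and c-Maf is a transcription factor that takes part in cytokine control in T cells. Libraries were prepared from lysates of small cell numbers with a modified SMART-Seq 2 protocol, in which whole cDNA molecules are amplified. The sources used here do not give the Cre line that deletes the genes, the age of the mice or whether libraries came from separate animals. The p-values therefore measure only how libraries of a genotype vary, which may be technical.

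A CD8+ T cell that meets its target acts through perforin and granzymes, through death ligands on its surface and through secreted cytokines. Fas ligand (Fasl) and TRAIL (Tnfsf10) are members of the TNF superfamily that bind death receptors and can start caspase cleavage in the target cell. Interferon gamma (Ifng) raises antigen presentation in tumour cells and activates macrophages, TNF (Tnf) drives inflammatory signalling, and IL-2 (Il2) is a growth factor of T cells. The lymphotoxins (Lta and Ltb) act on stromal and myeloid cells, and the colony-stimulating factors Csf1 and Csf2 (M-CSF and GM-CSF) feed the growth and activation of macrophages and granulocytes. In exhausted T cells of tumours, IL-2 and TNF are known to be lost before interferon gamma.

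Prdm1 was lower in the libraries labelled as lacking it. Its value was 4.71, 0.41 and 3.66 in the Prdm1 cKO libraries and 4.69, 1.18 and 3.27 in the cDKO libraries, all below the lowest WT value of 6.45. Maf was low everywhere, from 0.03 to 0.95 in WT, and was listed at 0 in c-Maf cKO libraries B10 and B11. The c-Maf cKO library C1 held 0.93, within the WT range, so Maf does not check that label. In cDKO, Maf was 0 in C2, 0.18 in A1 and 0.03 in A2. The values of A1 and A2 also lie within the WT range, so Maf does not check the c-Maf part of their label. Column totals of the table lay between 389650 and 475956. All 9 CD8 T cell markers were present in each genotype, and Cd4 was at most 1.84. Their score, the mean log2(value + 1) over a marker list, was 7.76 on average in WT (6.78 to 8.32), 7.38 in Prdm1 cKO (7.24 to 7.48), 7.95 in c-Maf cKO (7.93 to 7.97) and 7.45 in cDKO (7.05 to 7.96). Of the 16 macrophage and monocyte markers, 3 passed the test as higher in Prdm1 cKO than in WT, and 1, Ccr2, as lower in cDKO. Their score was between 5.14 and 6.48 in Prdm1 cKO, 1.67 and 5.37 in WT, 2.60 and 5.24 in c-Maf cKO, and 1.45 and 2.65 in cDKO. Their summed value ran from 1397 to 3862 in Prdm1 cKO, from 525 to 2266 in WT, from 699 to 1943 in c-Maf cKO and from 461 to 1254 in cDKO, where 1 of the 16, Retnla, was listed at 0 in all 3 libraries. Erythroid markers stood out in cDKO libraries A1 and A2, with scores of 6.11 and 7.27 against 2.91 in C2 and a WT range of 0.24 to 5.46; 3 of 5 tested erythroid markers passed as higher in cDKO. Melanoma markers also set these libraries apart, with scores of 7.002 in A1 and 6.53 in A2 against 3.39 in C2; the WT range was 0.60 to 8.04 and that of Prdm1 cKO 5.74 to 6.71. Each knockout group stands in the table beside a run of WT columns, and these runs are called column sets 1 (Prdm1 cKO with 7 WT), 2 (c-Maf cKO with 4 WT) and 3 (cDKO with 5 WT). The sets come from column order, and no label gives them as matched controls. Library codes begin with a letter that no label explains. It is A for all of set 1 and for cDKO A1 and A2, and C for C1 and C2. All other libraries carry B, so no WT library of set 3 shares a letter with a cDKO library. The labels name no batch.

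In WT cells the 9 genes covered a wide range of levels. The values are the authors' normalised signal, whose scale is not stated and whose low values fall with transcript length, as in length-scaled units. By WT median, Ltb was highest at 187, with a range of 106.8 to 272. It was followed by Fasl at 36.1 (22.6 to 77.3), Ifng at 35.5 (11.8 to 129.5), Tnf at 11.4 (3.94 to 30.4), Tnfsf10 at 8.51 (4.55 to 15.4), Csf1 at 6.50 (0.86 to 14.8), Lta at 3.56 (0.96 to 5.78), Csf2 at 1.71 (0.07 to 3.78) and Il2 at 0.15 (0 to 2.11). Only Ltb was separate from the next gene in this order; the WT ranges of every other pair of neighbours overlapped. Tnf was below Ifng in all 16 WT libraries, and so was Lta below Tnfsf10. In Prdm1 cKO the order differed: Tnf was above both Ifng and Fasl in 3 of 3 libraries, which no WT library and no c-Maf cKO library showed. In cDKO, Tnf was above Ifng in 2 of 3 libraries, A1 and A2, and above both Ifng and Fasl in 1 of 3, A1. These orders were noticed in the values and carry no test.

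**Figure D1:**
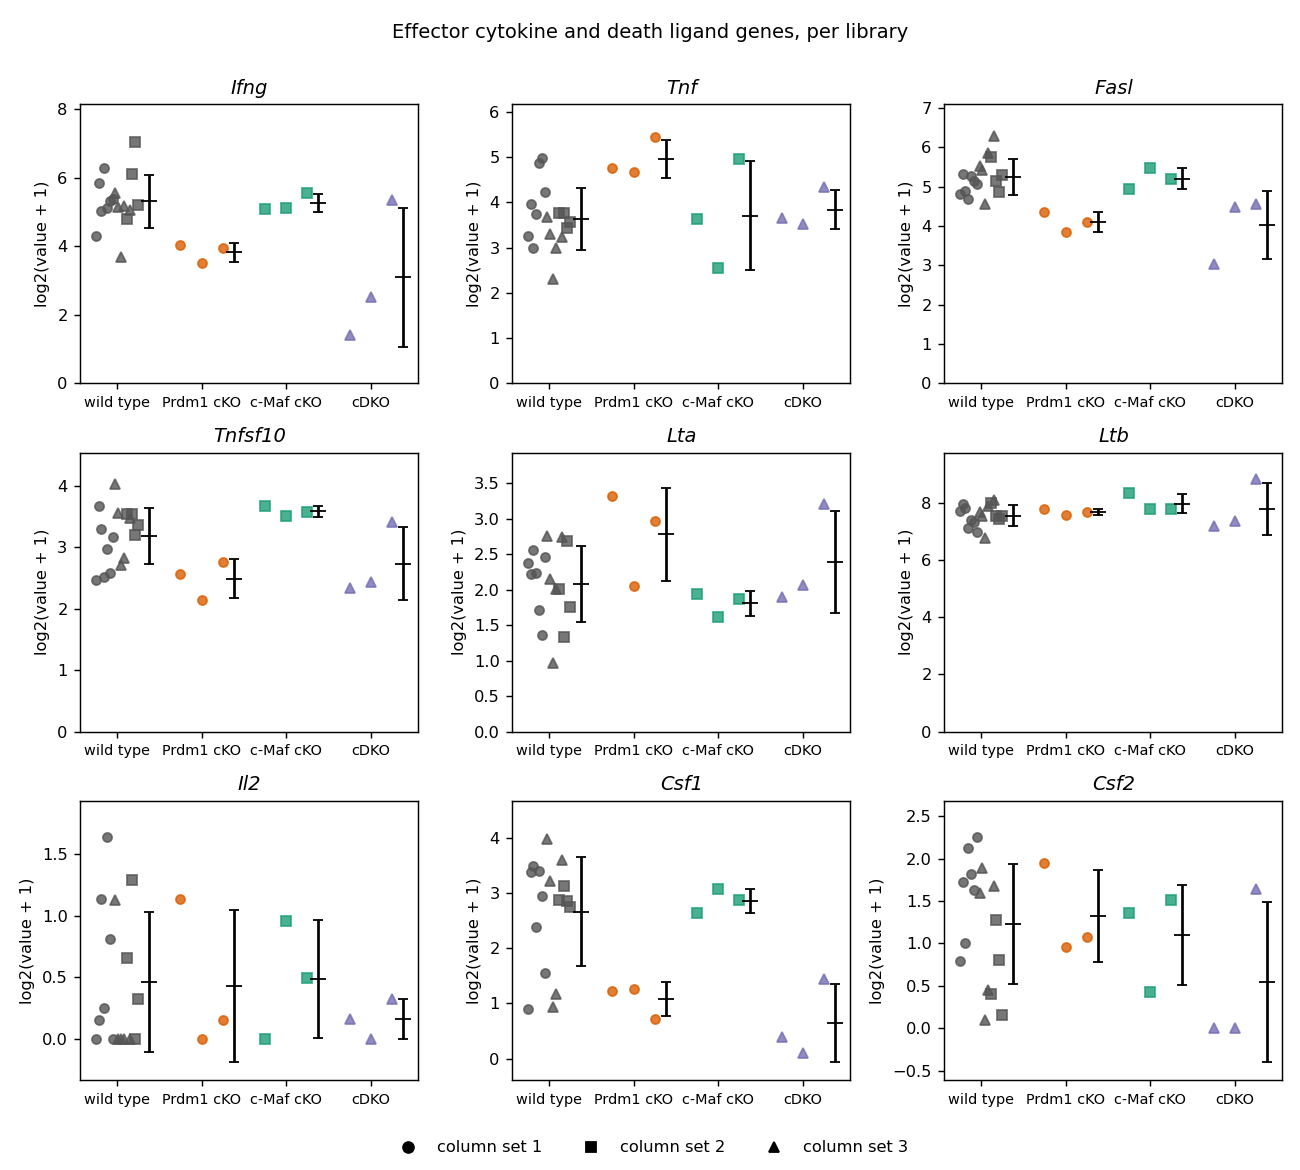
Level of each gene as log2(value + 1) in each of the 25 libraries, by genotype, with the column set as the symbol and the mean ± SD of the genotype as the black bar. Fasl in the 3 Prdm1 cKO libraries lies below all 16 WT libraries, and cDKO library C2 lies apart from A1 and A2 for Ifng and Ltb.

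The stretch of 250 bases before the start of transcription is printed for Ifng, Fasl and Csf1, the genes that passed the test as lower in cDKO, and for Tnf, which had the largest difference upward in Prdm1 cKO. The sequences are from RefSeq on GRCm38.p6, read 5′ to 3′ on the strand of the gene. Ifng is at chr10:118440796-118441045 (plus strand), Fasl at chr1:161788496-161788745 (minus), Csf1 at chr3:107760470-107760719 (minus) and Tnf at chr17:35202008-35202257 (minus). Capitals mark each match, on either strand, to 6 motifs: GGAAA (NFAT core), TGANTCA (AP-1), GGG and CC with any 5 bases between them (NF-kB), GAAAGT (core of Blimp-1 and IRF sites), AGGTGTGA (T-box) and TGCTGA (partial Maf site). Matches can overlap, as GGAAA and GAAAGT do in Csf1.
Ifng: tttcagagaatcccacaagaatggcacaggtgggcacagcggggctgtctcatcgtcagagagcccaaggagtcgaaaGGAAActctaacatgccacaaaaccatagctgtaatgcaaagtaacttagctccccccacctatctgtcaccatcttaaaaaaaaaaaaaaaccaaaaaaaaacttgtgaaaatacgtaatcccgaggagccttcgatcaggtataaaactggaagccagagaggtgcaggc
Fasl: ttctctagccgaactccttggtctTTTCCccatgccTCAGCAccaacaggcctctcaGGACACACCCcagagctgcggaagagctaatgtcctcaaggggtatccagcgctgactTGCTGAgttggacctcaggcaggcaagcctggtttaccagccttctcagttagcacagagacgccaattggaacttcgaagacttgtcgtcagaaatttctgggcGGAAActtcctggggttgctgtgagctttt
Csf1: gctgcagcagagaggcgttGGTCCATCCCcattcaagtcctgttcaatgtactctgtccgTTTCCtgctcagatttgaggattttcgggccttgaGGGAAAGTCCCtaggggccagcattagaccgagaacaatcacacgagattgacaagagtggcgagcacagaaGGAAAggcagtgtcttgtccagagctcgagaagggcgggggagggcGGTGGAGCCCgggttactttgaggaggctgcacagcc
Tnf: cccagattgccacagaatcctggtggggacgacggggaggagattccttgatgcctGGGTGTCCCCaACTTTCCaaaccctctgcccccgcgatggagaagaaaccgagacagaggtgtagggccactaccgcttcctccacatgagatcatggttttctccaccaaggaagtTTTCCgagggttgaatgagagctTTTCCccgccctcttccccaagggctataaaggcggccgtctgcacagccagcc

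Windows of 300 bases, from 250 before to 50 after the start, were searched for all 9 genes and for all 32851 windows of that length. The NFAT core GGAAA was in 9 of 9 genes and in 61.3% of all windows. The NF-kB pattern was in 7 of 9 genes (not in Ifng or Tnfsf10) and in 50.8% of all windows. The Blimp-1 and IRF core GAAAGT was found in Tnf, Ltb and Csf1, and in 14.3% of all windows. Counted from the start of transcription, its first base lay at -153 in Csf1, at -86 in Ltb and at -183 in Tnf. The partial Maf site TGCTGA was found in Fasl and Il2, and in 19.5% of all windows. No window of the 9 genes held these letters for AP-1 (7.8% of all windows) or T-box (1.3%). These are matches of letters in a short window; binding was not measured.

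The cDKO libraries held less of Ifng, Fasl and Csf1 than WT, while the other 6 genes did not pass the test. A gene passed where limma, fitted over all 12251 genes with a value of at least 1 in at least 3 libraries, gave a Benjamini-Hochberg adjusted p under 0.05. All 9 genes met that filter, and fold changes are on the log2(value + 1) scale, which understates changes of low genes. In cDKO 3 of 9 passed, all lower; over all genes 11.9% passed and 6.85% passed as lower, with a median log2 fold change of -0.03. The median over the 9 genes was -0.45. In Prdm1 cKO 1 of 9 passed, Fasl, which was lower; over all genes 3.45% passed and 1.87% as lower. In c-Maf cKO 0 of 9 passed, and none had an unadjusted p under 0.05; over all genes limma called 0.0%, and 755 of 12251 had an unadjusted p under 0.05. The split of calls over all genes varied with scaling. In cDKO 624 were higher and 839 lower as deposited, 948 and 184 when libraries were scaled to their CD3 genes, and 719 and 650 after quantile normalisation. In Prdm1 cKO the split was 194 and 229 as deposited, 533 and 58 with CD3 scaling, and 290 and 211 with median-of-ratios scaling. CD3 scaling put the median of all genes at 0.31 in cDKO and 0.37 in Prdm1 cKO. Ifng, Fasl and Csf1 in cDKO passed as lower under it too. That scaling takes the CD3 genes as equal between genotypes. Their means in WT, Prdm1 cKO and cDKO were 271, 227 and 264 for Cd3d. They were 526, 366 and 408 for Cd3e, and 397, 224 and 216 for Cd3g. Of the 9 CD8 T cell markers, 1 passed as lower in cDKO. In bulk libraries, fewer cells that make a transcript and less transcript per cell cannot be told apart.

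**Figure D2:**
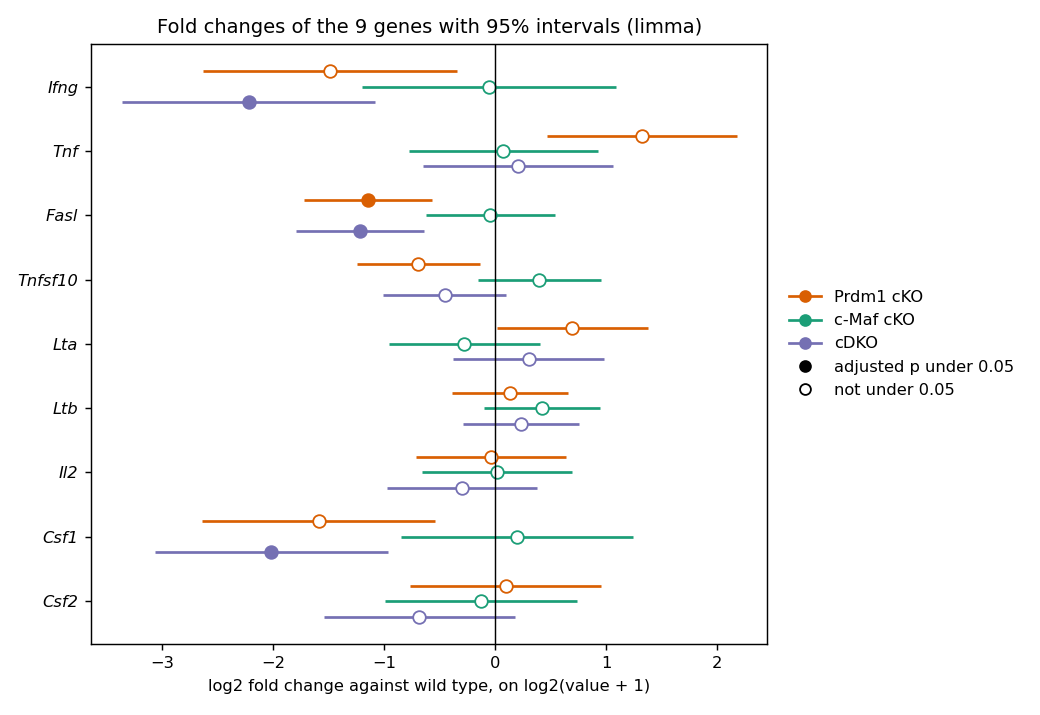
Log2 fold change of each gene against WT (16 libraries) in Prdm1 cKO, c-Maf cKO and cDKO (3 libraries each), with 95% intervals from limma as lines; filled points passed at an adjusted p under 0.05. Filled points are Ifng, Fasl and Csf1 in cDKO and Fasl in Prdm1 cKO, all to the left of 0.

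Fas ligand was lower in both genotypes that lack Prdm1. In Prdm1 cKO, Fasl was 19.7, 13.4 and 16.1 in libraries A5, A6 and A9, against a WT range of 22.6 to 77.3 and a WT mean of 38.9 ± 14 (SD, n = 16). All 3 libraries lay below all 16 WT libraries. The log2 fold change was -1.15 ± 0.28 (SE, adjusted p = 0.0252). In cDKO the values were 22.7, 7.21 and 21.4 in C2, A1 and A2; A1 and A2 lay below every WT library and C2 just above the lowest one. The log2 fold change was -1.22 ± 0.28 (adjusted p = 0.00532). In c-Maf cKO, Fasl was 29.6, 43.6 and 35.8, inside the WT range, with a log2 fold change of -0.04 and a 95% interval of -0.62 to 0.54. The call in Prdm1 cKO was lost with the column set as covariate (-0.93, adjusted p = 0.136), with the macrophage score as covariate (-0.99, adjusted p = 0.345) and with CD3 scaling (-0.68, adjusted p = 0.0844), and was kept against the 7 WT libraries of its own column set (adjusted p = 0.0467). It was also lost without library A6 (-1.02, adjusted p = 0.138) or A9 (-1.14, adjusted p = 0.122). Macrophage scores of Prdm1 cKO and WT overlapped little, so the fit with that covariate can hardly tell genotype and macrophage content apart. The call in cDKO was lost without A1 (-0.72, adjusted p = 0.146) and against only the 5 WT libraries of its set (-1.51, adjusted p = 0.1).

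TRAIL, the other death ligand, did not pass in any comparison with WT as reported. Tnfsf10 was 4.92, 3.42 and 5.77 in Prdm1 cKO against a WT median of 8.51, and library A6 lay below the lowest WT library. The log2 fold change was -0.69 ± 0.27 (95% interval -1.25 to -0.14, adjusted p = 0.137). In cDKO, A1 and A2 held 4.05 and 4.43, below all WT libraries, while C2 held 9.64; the log2 fold change was -0.45 ± 0.27 (adjusted p = 0.318). It was -0.79 without C2 (adjusted p = 0.0979) and passed with array quality weights (-0.74, adjusted p = 0.029). In c-Maf cKO the 3 libraries held 11.8, 10.4 and 10.8, in the upper part of the WT range, with a log2 fold change of 0.40 ± 0.27 (adjusted p = 0.82).

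Interferon gamma was lower in cDKO, with 1 library apart from the others. Ifng was 39.3 in C2, 1.65 in A1 and 4.71 in A2, against a WT range of 11.8 to 129.5 and a WT mean of 44.5 ± 27.9 (SD, n = 16). A1 and A2 lay below every WT library, and C2 was above the WT median. The log2 fold change was -2.22 ± 0.55 (adjusted p = 0.01). It was -3.35 without C2 (adjusted p = 0.000268), -1.38 without A1 (adjusted p = 0.171) and -1.94 without A2 (adjusted p = 0.106). A1 and A2 are also the cDKO libraries with the higher erythroid and melanoma scores and the lower CD8 scores, 7.05 and 7.33 against 7.96 in C2; the part of this in the result was not tested. With the column set as covariate the fold change was -1.83 ± 0.64 (adjusted p = 0.0886). Against only the WT libraries of its column set, Ifng in cDKO did not pass either. In Prdm1 cKO, Ifng was 15.2, 10.3 and 14.4, below 15 of the 16 WT libraries, and below all 7 WT libraries of its column set. That difference of -1.49 ± 0.55 did not pass (95% interval -2.63 to -0.34, adjusted p = 0.121), but did without cDKO library C2, whose spread enters the shared error (adjusted p = 0.0438). In c-Maf cKO the values were 33.1, 33.7 and 45.8, near the WT median.

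Tnf did not pass in any genotype against WT as reported, and in Prdm1 cKO its difference had the opposite sign to those of Ifng and Fasl. In Prdm1 cKO it was 26.0, 24.4 and 42.5 against a WT median of 11.4; A9 was above every WT library, and all 3 were above 14 of 16. The log2 fold change was 1.32 ± 0.41 (95% interval 0.47 to 2.18, adjusted p = 0.067), just outside the threshold. It passed as higher in 7 of 41 alternatives, among them CD3 scaling (1.79, adjusted p = 0.0254), a pseudocount of 10 (0.88, adjusted p = 0.0445), and without A4 (adjusted p = 0.037), A7 (adjusted p = 0.036) or C1 (adjusted p = 0.0457). In cDKO Tnf was 19.1, 11.6 and 10.6 in C2, A1 and A2, inside the range of all WT libraries, with a difference of 0.21 ± 0.41. The 5 WT libraries of column set 3 ran from 3.94 to 11.9, so C2 lay above them and A1 and A2 in the upper part of their range. In c-Maf cKO it was 11.3, 4.81 and 30.0, and 1 WT library, A7 at 30.4, exceeded C1. C1 is also the c-Maf cKO library with the highest macrophage score, 5.24, and A7 the WT library with the highest, 5.37. Over the 16 WT libraries Tnf and that score had a Pearson r of 0.581 (permutation p = 0.0183, adjusted p = 0.165 over 54 relations) and a Spearman rho of 0.444 (permutation p = 0.087). Without the 2 libraries farthest from the median score r was 0.56, and within column set 1 it was 0.584 (n = 7). With the macrophage score as covariate, the Tnf difference between Prdm1 cKO and WT was 0.32 ± 0.39 (adjusted p = 0.845). That score ran from 5.14 to 6.48 in Prdm1 cKO and from 1.67 to 5.37 in WT. Genotype and macrophage content can therefore hardly be told apart in this fit, and the part of macrophages in Tnf was not tested. WT Tnf also differed by column set, with means of 17.0 in set 1, 11.5 in set 2 and 8.02 in set 3; with the set as covariate the difference was 0.95 ± 0.42 (adjusted p = 0.289).

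**Figure D3:**
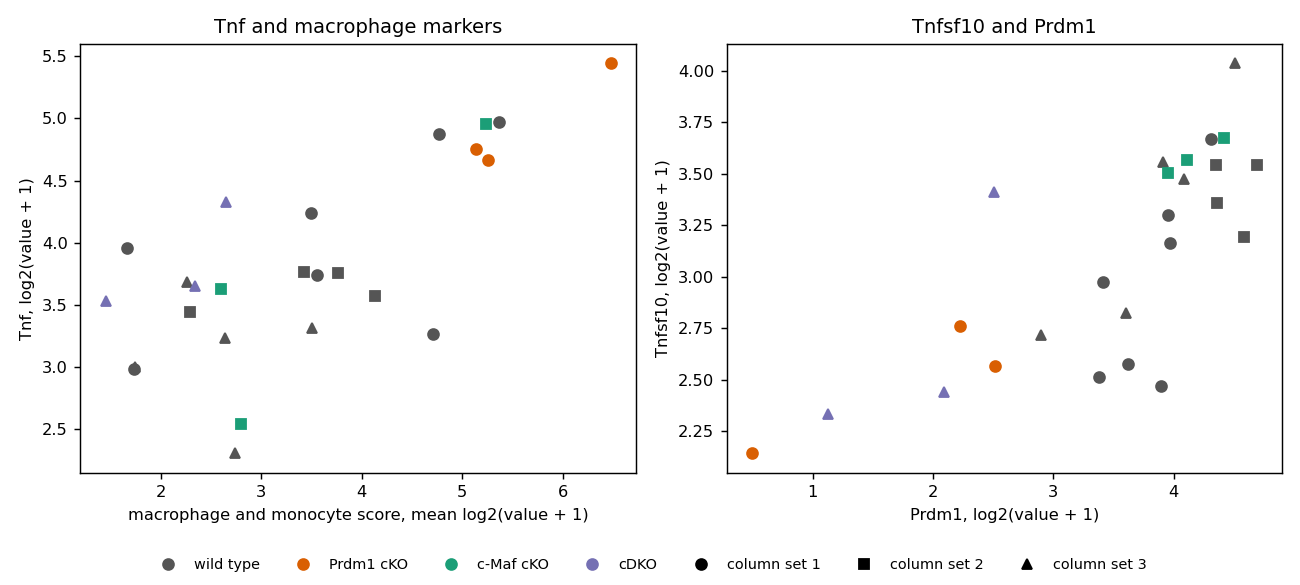
Left, Tnf against the macrophage and monocyte marker score; right, Tnfsf10 against Prdm1; each point is 1 of the 25 libraries, all axes in log2(value + 1), with colours for the genotypes and symbols for the column sets. The 3 Prdm1 cKO libraries lie at scores from 5.14 to 6.48 on the left, near the c-Maf cKO library C1 at 5.24.

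The lymphotoxins did not pass in any genotype against WT as reported. Lta was 8.96, 3.15 and 6.81 in Prdm1 cKO against a WT range of 0.96 to 5.78, so A5 and A9 lay above every WT library and A6 within the range; the log2 fold change was 0.69 ± 0.33 (adjusted p = 0.234), and 1.12 with CD3 scaling, where it passed (adjusted p = 0.0402). In cDKO, C2 held 8.26 and the other libraries 2.71 and 3.17. Ltb, which pairs with lymphotoxin alpha on the cell surface, was 221, 190.1 and 205 in Prdm1 cKO. In c-Maf cKO it was 324, 218 and 220.4. In cDKO it was 453 in C2, the highest of all 25 libraries, and 143 and 164 in A1 and A2, inside the WT range. The cDKO difference of 0.24 ± 0.25 turned to -0.28 ± 0.24 without C2, and was 0.67 (adjusted p = 0.0249) when libraries were scaled to their CD3 genes.

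Il2 was at the edge of detection. In WT it ranged from 0 to 2.11. Prdm1 cKO libraries held 1.20, 0 and 0.11, c-Maf cKO libraries 0, 0.94 and 0.41, and cDKO libraries 0.25, 0.12 and 0. Its differences from WT were each smaller than their SE, and depth is unknown, so low values cannot be told from missed transcripts.

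Csf1 was lower in cDKO, and its values were nearly as low in Prdm1 cKO, where it did not pass. In cDKO it was 1.72, 0.31 and 0.07 in C2, A1 and A2, against a WT range of 0.86 to 14.8 and a WT mean of 6.60 ± 4.05 (SD, n = 16). A1 and A2 lay below all WT libraries. The log2 fold change was -2.02 ± 0.51 (adjusted p = 0.00997). The call was lost without A1 (-1.89, adjusted p = 0.0705), without A2 (-1.75, adjusted p = 0.111) and with the column set as covariate (-1.94, adjusted p = 0.0508). It was also lost against only the WT libraries of its column set. In Prdm1 cKO Csf1 was 1.35, 1.41 and 0.65, below 13 of the 16 WT libraries, with a log2 fold change of -1.59 ± 0.51 (95% interval -2.64 to -0.54, adjusted p = 0.0741). It passed without WT library A10 (adjusted p = 0.0383) or B3 (adjusted p = 0.0342), which hold 0.86 and 0.91. In c-Maf cKO the values were 5.22, 7.40 and 6.33, close to the WT median of 6.50. Csf2, the GM-CSF gene, was 2.84, 0.94 and 1.10 in Prdm1 cKO and 1.57, 0.34 and 1.86 in c-Maf cKO. In cDKO it was 2.11 in C2 and listed at 0 in A1 and A2, with a difference of -0.68 ± 0.42 (adjusted p = 0.339). As for Il2, the low values of Csf1 and Csf2 in A1 and A2 cannot be told from missed transcripts.

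**Figure D4:**
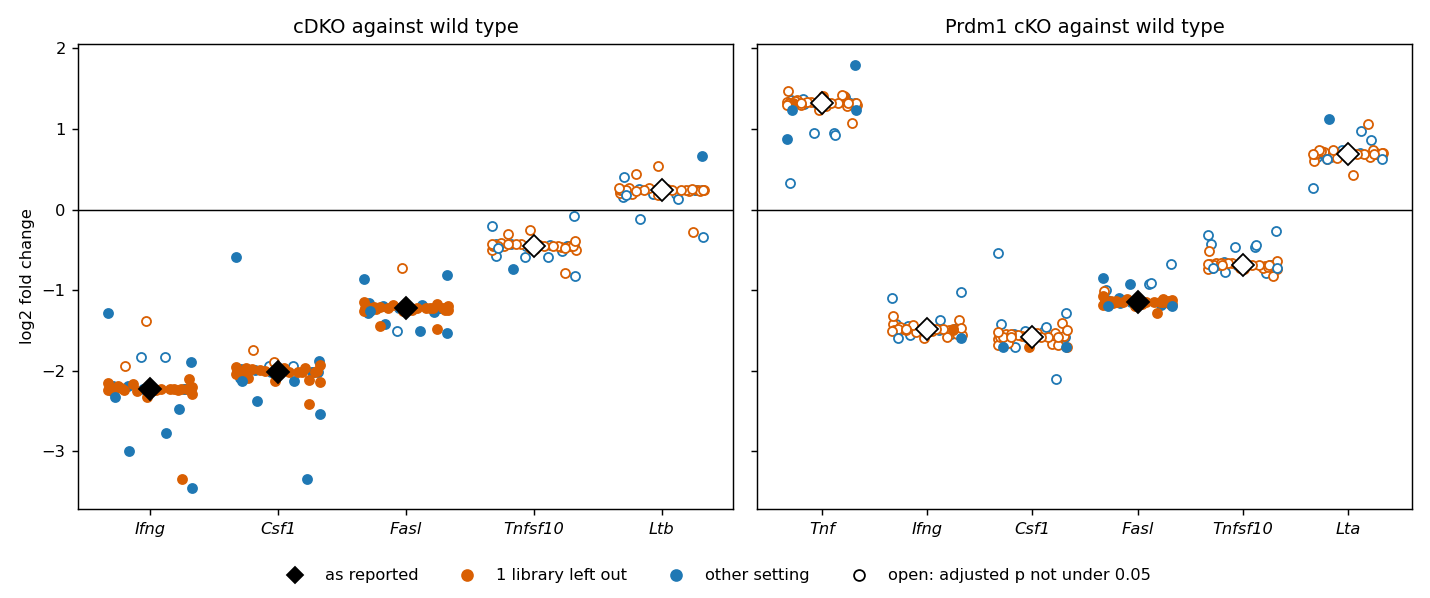
Log2 fold changes against WT under each analysis setting (diamond, as reported; orange, 1 library left out; blue, another setting), filled where the adjusted p was under 0.05. Ifng, Csf1 and Fasl stay below 0 in both comparisons under all settings shown, and Ltb in cDKO crosses 0.

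Between the knockout genotypes, Fasl and Csf1 were lower in cDKO than in c-Maf cKO. The log2 differences were -1.18 ± 0.37 for Fasl (adjusted p = 0.0411) and -2.22 ± 0.66 for Csf1 (adjusted p = 0.0346); over all genes 9.39% passed and 5.61% passed as lower. Each was lost in several settings, among them each c-Maf cKO library left out: Fasl then had adjusted p from 0.0619 to 0.137 and Csf1 from 0.0688 to 0.095. Ifng differed by -2.17 ± 0.72 in this comparison and did not pass (adjusted p = 0.0588). Between cDKO and Prdm1 cKO 0 of 9 passed in limma, with 0.392% over all genes; 1 gene, Tnf, had an unadjusted p under 0.05. Its difference was -1.12 ± 0.54 (adjusted p = 0.393), and Fasl differed by -0.07 with a 95% interval of -0.82 to 0.68. Between Prdm1 cKO and c-Maf cKO 0 of 9 passed, with 1.53% over all genes, while 5 of 9 had an unadjusted p under 0.05. The shares over all genes in this paragraph are for adjusted p. They give no background for the unadjusted counts, which are therefore not read as a result. Tnfsf10 came nearest, at -1.09 ± 0.35 (adjusted p = 0.0906).

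The departure of cDKO from the sum of the single knockouts was estimated for each gene. In limma 0 of 9 genes passed, none had an unadjusted p under 0.05, and 0.00816% of all genes passed. The estimates ran from -1.19 ± 0.68 for Tnf (95% interval -2.59 to 0.21) to -0.03 ± 0.46 for Fasl (-0.98 to 0.92). With 3 libraries a group, these intervals span more than 1 log2 unit.

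Receptors of the 9 genes, related ligands and cytokines, and genes of their signalling and control were counted from lists by function, of which 108 genes were tested. In cDKO 27 of 108 passed against 11.9% of all genes, in Prdm1 cKO 11 of 108 against 3.45%, and in c-Maf cKO 0 of 108. The lists were chosen with earlier results of these data known. Counts above the share of all genes, here and in the lists below, are therefore a description only. Of 9 tested TNF superfamily ligands outside the set, 3 were lower in cDKO and 1 higher, with a median of -0.38. Cd70, the ligand of CD27, was lower (-2.84 ± 0.34, adjusted p = 3.25e-05), and so was Tnfsf4, the OX40 ligand (-1.93 ± 0.46, adjusted p = 0.00638). Tnfsf13b, which encodes BAFF, was lower (-1.17, adjusted p = 0.0481), and Tnfsf8, the CD30 ligand, was higher (1.55). In Prdm1 cKO none of these 9 passed, and their median was 0.45. Cd70 was also lower in cDKO than in Prdm1 cKO (-2.44 ± 0.44, adjusted p = 0.0152). Macrophages can make some of these ligands, and their marker score is given above for each genotype; its part in the cDKO values of single ligands was not tested.

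Other cytokines of T cells followed no single direction. Of 10 tested in cDKO, Areg (amphiregulin, -2.13) and Ebi3 (a subunit of IL-27 and IL-35, -1.71) were lower and Lif higher (0.996), with a median of -0.40. In Prdm1 cKO Lif (1.40) and Osm (oncostatin M, 2.41) were higher. Areg was lower in cDKO than in Prdm1 cKO (-3.14). Of 15 receptors of the 9 genes, Ifngr2, a chain of the interferon gamma receptor, was higher in cDKO (2.14) and in Prdm1 cKO (1.47). Il2ra, the alpha chain of the IL-2 receptor, was lower in both (-1.71 and -1.56). In cDKO, Tnfrsf1b, a TNF receptor, was lower (-0.83) and Tnfrsf14, which binds LIGHT and lymphotoxin alpha, higher (0.58, adjusted p = 0.0461). The receptor of Fas ligand, Fas, did not pass in cDKO (0.87, adjusted p = 0.0953).

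Among 16 death receptor signalling genes, Bid, which links death receptors to mitochondria, was lower in cDKO (-0.78), just inside the threshold (adjusted p = 0.0497). None passed in Prdm1 cKO against WT, where the median was -0.13. Of 22 interferon gamma signalling genes and targets, Irf8, a transcription factor induced by interferon gamma, was lower in cDKO (-3.36 ± 0.43, adjusted p = 6.61e-05), as was Gbp3, a guanylate-binding protein (-0.95). Socs1, a feedback inhibitor of the pathway, was higher in cDKO (0.90) and in Prdm1 cKO (1.12), and Jak1 was higher in cDKO (0.75). Tap1, the peptide transporter, was lower in Prdm1 cKO (-0.89). The medians over this list were -0.08 in cDKO and -0.18 in Prdm1 cKO.

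Of 24 tested regulators of transcription listed for these cytokine genes, Tbx21, which encodes T-bet, an activator of Ifng, was lower in cDKO (-1.61), as was Id2 (-1.09). Jun (1.05), Junb (0.53), Nfatc3 (0.60) and Stat5b (0.87) were higher. In Prdm1 cKO Jun (1.76) and Junb (0.57) were higher. Of 12 tested regulators of cytokine transcripts after transcription, a list that mixes decay factors with the stabiliser Elavl1 and the translation regulators Tia1 and Pdcd4, 4 were higher in cDKO and none lower, with a list median of 0.53 against -0.03 over all genes. These were the decay factors Zfp36l1 (1.14), Rc3h1 (Roquin-1, 0.82, adjusted p = 0.0487) and Zc3h12a (Regnase-1, 0.51), and Pdcd4, an inhibitor of translation (0.95). In Prdm1 cKO 3 were higher: Zfp36 (tristetraprolin, 1.29), Zfp36l1 (0.91) and Zc3h12a (0.65). With the macrophage score as covariate 0 of the 108 listed genes passed in Prdm1 cKO, and with the column set 3 did. Macrophage scores of Prdm1 cKO and WT overlapped little, so genotype and macrophage content can hardly be told apart with that covariate.

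**Figure D5:**
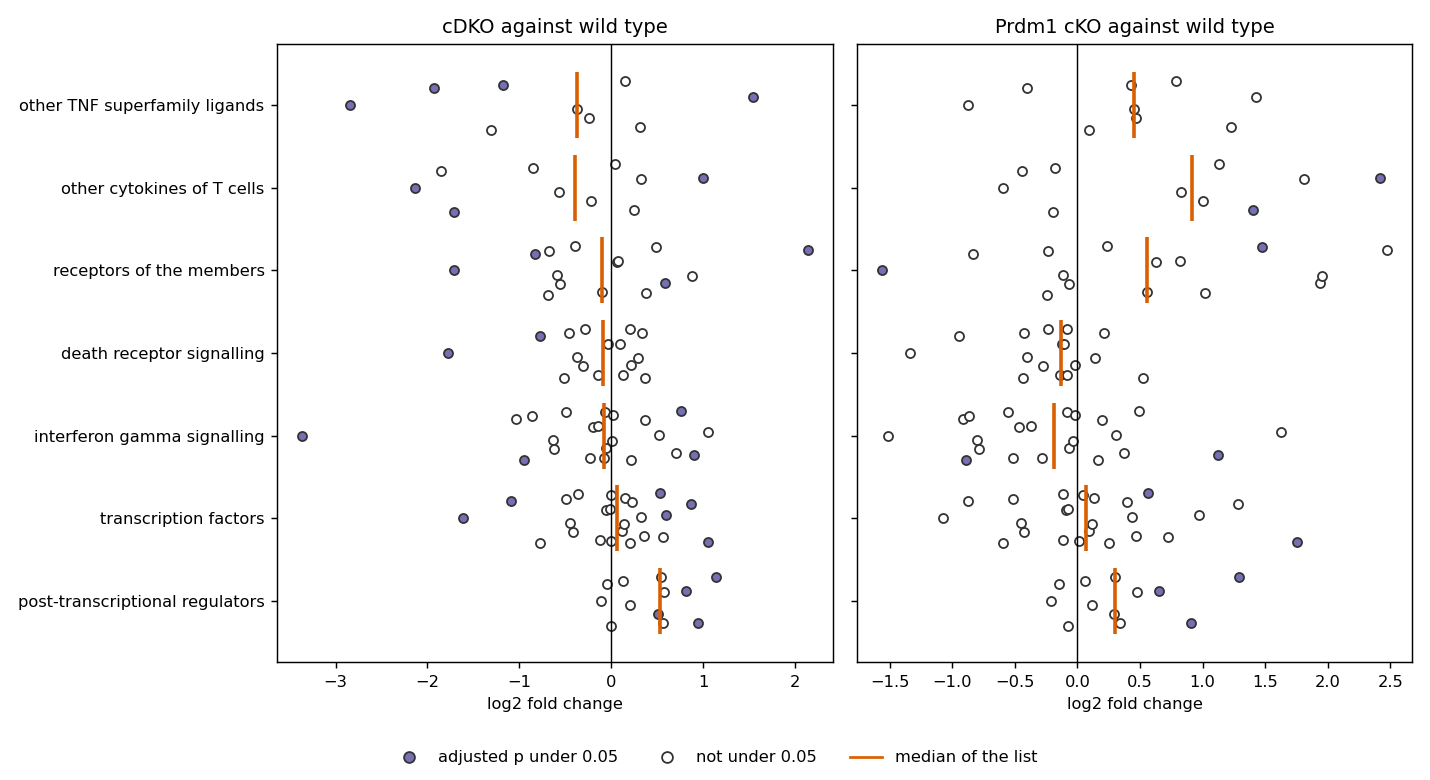
Log2 fold changes against WT of the 108 tested genes by list, in cDKO (left) and Prdm1 cKO (right), filled where the adjusted p was under 0.05, with the median of each list as an orange line. The post-transcriptional regulators in cDKO have their 4 filled points to the right of 0, and the TNF superfamily ligands have 3 of 4 to the left.

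Against c-Maf cKO, the listed genes that passed in cDKO as lower included Bid, Gbp3, Irf8, Areg, Cd70, Tnfsf4, Il2ra, Tnfrsf1b and Id2. Those that passed as higher were Jak1, Socs1, Zfp36l1, Lif, Ifngr2, Jun, Nfatc3 and Stat5b. The largest were Irf8 at -3.69 and Cd70 at -2.94. In Prdm1 cKO against c-Maf cKO, Tap1 was lower (-1.27). Socs1 (1.05), Lif (1.42), Osm (2.77) and Jun (2.08) were higher.

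Within WT, where genotype does not vary, 29 of the 36 pairs among the 9 genes had a positive Pearson r over 16 libraries. The share of positive pairs over all genes was not computed, so this count has no background. Library B3 had the lowest CD8 score in WT, 6.78, and the highest melanoma score, 8.04. It also held the lowest WT value of Ifng, Tnf, Fasl, Lta, Ltb, Csf2 and Prdm1. The part of cell content in the count was not tested. Of 54 relations computed (36 pairs, 9 with Prdm1 and 9 with the macrophage score), 2 passed by Pearson's r and 0 by Spearman's rho after adjustment. Tnfsf10 and Prdm1 had r = 0.732 (permutation p = 0.00139, adjusted p = 0.0456) and rho = 0.709 (permutation p = 0.00281, adjusted p = 0.0769). Without libraries B5 and B3 r was 0.732 (adjusted p = 0.2), and within column set 1 it was 0.709 (n = 7). Fasl and Ltb had r = 0.725 (permutation p = 0.00169, adjusted p = 0.0456) and rho = 0.688 (permutation p = 0.00425, adjusted p = 0.0769). Without B3 and B6 their r fell to 0.557 and within set 1 it was 0.212 (n = 7), so this relation rests in part on those libraries. Sets 2 and 3 hold 4 and 5 WT libraries, too few for a value.

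The genes with the profile most like each of the 9 over the 16 WT libraries, by Pearson's r among 12251 genes, are given as a description. For Ifng they were Psmd2 (0.856), Nfkbib (0.838) and Gnptab (0.803), and for Tnf Axl (0.862), Nfkbia (0.859) and Slx4ip (0.83). For Fasl they were Crot (0.891) and Pdlim2 (0.869), and for Tnfsf10 Ppp2r1a (0.932), Cd244 (0.872) and Padi2 (0.849). For Lta they were Ippk (0.836), Clec2d (0.806) and Tceanc (0.78), and for Ltb Grap (0.928), Mob3a (0.928) and Arhgap9 (0.92). For Csf1 they were Synpo2 (0.899), Dock10 (0.861) and Coq9 (0.853). For the low genes Il2 and Csf2 they were Nebl (0.831), Dhx58 (0.812) and Zfp12 (0.742), and Gm20752 (0.781) and Trmt10b (0.774).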

How the data were processed

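The authors deposited 1 table of normalised expression signal per gene symbol for 25 libraries. Per the submitters' processing notes, TopHat, RSEM and DESeq were used on mm9; their versions, and the scale of the values, were not given in the sources used. The signal has 2 decimals and is not a count, so depth is unknown and no count test was run. Columns were assigned by the genotype in their names, and 0 columns belong to no sample. The 9 genes, the lists and the naming rule were chosen with earlier results of these data known.

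Values were taken as log2(value + 1). Genes with at least 1 in 3 libraries (12251) were fitted in 1 linear model over the 4 genotypes with limma 3.58.1 in R 4.3.3 (trend and robust options), and p-values were adjusted by Benjamini-Hochberg over all of them. The procedure was tested on simulated data. Correlations used 100000 permutations, two-sided. The lists were other TNF superfamily ligands (13 genes), other cytokines of T cells (23), receptors of the 9 genes (15), death receptor signalling (16), interferon gamma signalling (23), transcription factors (25) and post-transcriptional regulators of cytokine transcripts (13). Listed genes are named where they passed in cDKO or Prdm1 cKO, up to 5 a direction, or in another comparison; for each of the 9 genes, the 3 most alike are named. Some genes that meet these rules are not reported here. Alternatives changed the pseudocount, filter, scaling, covariates, controls, test options and libraries; those without C1, B3 and C2 were added after seeing the data. Promoters are RefSeq, GRCm38.p6, with 9 of 9 genes matched; they were not used with mm9 coordinates.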

Additional observations from a re-analysis of the deposited data

How the results depend on the processing

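The count of the 9 genes called in cDKO against WT, 3, fell to 1 with the column set as covariate and to 0 against only the WT columns of its set; leaving out each library in turn gave 0 to 3, with 0 without A1 and 1 without A2. It was 4 with CD3 scaling, which added Ltb as higher, and 4 with array weights, which added Tnfsf10 as lower. In Prdm1 cKO against WT the count of 1 became 2 with a pseudocount of 10 (Fasl lower, Tnf higher), 2 with CD3 scaling (Tnf and Lta higher, Fasl lost), and 0 with the column set, the code letter or the macrophage score as covariate. Leaving out each library gave 0 to 2 (0 without A6 or A9; 2 without A4, A7, A10, C1, B3 or C2), and the sets chosen after seeing the data gave 4 without C1, C2 and B3 and 3 without C1 and B3. In cDKO against c-Maf cKO the count of 2 became 0 with a pseudocount of 10, no filter, the column set, the code letter, or without C1 and B3. It became 1 with CD3 scaling, quantile normalisation or only those groups, and 4 with array weights; leaving out each library gave 0 to 4 (0 without B10, B11, C1, A1 or A2; 4 without C2). In Prdm1 cKO against c-Maf cKO the count of 0 became 1 with CD3 scaling, 3 with only those groups and 1 without C1, C2 and B3. Listed genes called in cDKO, 27, became 44 with array weights and 9 against the WT columns of the set; leaving out each library gave 8 to 32 (15 without A1, 8 without A2). Those in Prdm1 cKO, 11, became 3 with the column set or the code letter, 0 with the macrophage score, 1 against the WT columns of the set, 22 without C1, C2 and B3 and 18 without C1 and B3; leaving out each library gave 3 to 20 (3 without A9, 5 without A6, 17 without A3, 20 without B3). Counts of c-Maf cKO against WT, cDKO against Prdm1 cKO and the departure from additivity kept their value of 0.

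Ltb in cDKO against WT reversed from 0.24 to -0.12 with array weights and to -0.34 without C1, C2 and B3, and ranged from -0.28 to 0.55 over single libraries left out. Ifng in cDKO against Prdm1 cKO ranged from -1.86 to 0.10 over these. Tnf reversed to 0.34 in cDKO against Prdm1 cKO, and to 0.39 in the departure from additivity, with the macrophage score as covariate. The causes were not tested. No paired analysis was possible because the column names carry no replicate numbers.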
